A study of Mus musculus with 21 samples.

Results

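The genes described here encode axon guidance ligands and their receptors, namely the semaphorins, plexins, neuropilins, ephrins, Eph receptors, netrins, netrin-Gs, Dcc and Unc5 receptors, Slits and Robos. They were taken by gene symbol alone, from the symbols Sema, Plxn, Nrp, Eph, Efn, Ntn, Ntng, Dcc, Unc5, Robo and Slit, and 70 of the 22040 genes in the deposited tables belonged to them. Plxna4 carries a number outside the range of symbols used for plexins and was treated with the related cues. Primary cortical neurons were cultured from newborn mice, either WT or hTau P301S, the latter with a mutant human tau cDNA driven by the prion promoter (called Tau below). All cultures received 1 μM AraC, an agent against dividing cells, to remove glia. The culture protocol describes seeding of the transgenic neurons with pre-formed tau fibrils (3 μg/mL on day 7, followed by 18 days of culture). The study's results place the extraction of RNA from both genotypes after seeding, and whether WT cultures were seeded was not settled. If they were not, the effects of transgene and seeding cannot be told apart. Cultures then received 10 μM AdipoRon, an agonist of the adiponectin receptors, or its vehicle DMSO for 24 h. Polyadenylated RNA was sequenced from 5 Tau cultures with DMSO, 5 Tau cultures with AdipoRon, 5 WT cultures with DMSO and 6 WT cultures with AdipoRon. Per the study's general statement on its design, treatments were compared in samples of the same animal and genotypes in littermates within a session. The AdipoRon and DMSO cultures are therefore probably not independent of each other. Where the study states that experiments were repeated in independent sessions with littermates, it excepts the RNA sequencing. Whether the Tau and WT cultures here shared litters or sessions was thus not settled.

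Each guidance family works as a set of cues and matching receptors. Secreted class 3 semaphorins mostly act through a neuropilin paired with a plexin, whereas the other semaphorins are bound to the membrane and mostly contact plexins directly. Ephrins are anchored in the membrane of one cell and bind Eph receptor tyrosine kinases on the next. Netrins attract growing axons through Dcc and repel them through Unc5 receptors, and Slits repel axons that carry Robo receptors. In the mature cortex many of these proteins remain present and act on dendrites and synapses.

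The 4 deposited tables hold 1 mean level per gene and no value per culture. The level is in log2 CPM (the log2 of counts per 1000000 counts, that is, scaled to library size), and in each table it covers the cultures of the 2 groups compared there. One table therefore gives the mean of the 10 DMSO cultures and another that of the 11 AdipoRon cultures, both genotypes together. The remaining tables give the mean of the 10 Tau cultures and that of the 11 WT cultures, both treatments together. The tables give no depth per culture, no spread between cultures can be given and no test was possible, so every difference below is one between the authors' means without a replicate check. A difference of at least 1.5-fold in either direction is used as a marker of size and not of significance.

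The 4 means close on each other. Every culture enters either the DMSO or the AdipoRon mean and either the Tau or the WT mean, so both pairs must give one total. Over the 19399 genes in all 4 tables the log2 ratio of these totals had a median of -0.0005 and an SD of 0.00486, and among the guidance genes it was at most 0.0129 in size. The median difference over all genes was 0.024 (log2) for AdipoRon minus DMSO and 0.002 for Tau minus WT.

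Neuronal genes were abundant, with Snap25 at a mean level of 9.97 and Map2 at 9.60 log2 CPM. Glial genes were also present in spite of AraC. The astrocyte gene Gfap had a mean level of 10.87 log2 CPM, the oligodendrocyte lineage gene Olig1 9.26 and the microglial gene C1qa 7.22, so the levels of guidance genes are those of mixed cultures. Endothelial transcripts were scarce. Of 5 endothelial markers Cldn5 was not listed and Cdh5 was listed only in the table of WT cultures, and the 3 markers in all tables summed to between 3.57 and 5.04 CPM.

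Promoter sequences are shown for the guidance genes with the largest difference between Tau and WT cultures, Plxnb3 and Sema3d. Efna1 is shown as the guidance gene with the largest excess under AdipoRon, a rank that passed to Slit1 with 1 CPM added. The windows are the 250 bases before a transcription start in RefSeq (GRCm38.p6), at chrX:73756853-73757102 (plus strand), chr5:12382916-12383165 (plus strand) and chr3:89280952-89281201 (minus strand). The window of Plxnb3 lies before the only start listed for it in that source, and its RefSeq gene span begins upstream of the window, at position 73756556. That of Efna1 lies before the first of 2 starts. Capitals mark ACAANG on either strand, the core bound by Sox proteins, which is short and common.
Plxnb3: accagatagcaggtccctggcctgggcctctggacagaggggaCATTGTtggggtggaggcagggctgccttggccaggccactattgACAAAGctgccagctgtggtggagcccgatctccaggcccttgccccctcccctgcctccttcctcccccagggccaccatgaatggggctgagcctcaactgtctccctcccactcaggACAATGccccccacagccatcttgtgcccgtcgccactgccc
Sema3d: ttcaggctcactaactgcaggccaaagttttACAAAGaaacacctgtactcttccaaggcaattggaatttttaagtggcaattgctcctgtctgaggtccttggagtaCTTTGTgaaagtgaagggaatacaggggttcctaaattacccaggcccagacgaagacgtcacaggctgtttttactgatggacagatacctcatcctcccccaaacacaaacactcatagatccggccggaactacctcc
Efna1: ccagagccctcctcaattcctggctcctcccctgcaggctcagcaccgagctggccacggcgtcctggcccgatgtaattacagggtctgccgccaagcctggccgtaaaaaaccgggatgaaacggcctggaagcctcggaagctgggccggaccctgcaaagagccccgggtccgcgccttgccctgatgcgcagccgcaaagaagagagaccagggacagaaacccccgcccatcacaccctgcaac

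The Plxnb3 window held 3 copies of ACAANG, beginning at -207, -162 and -42 relative to the start, and the Sema3d window held 2 copies, at -219 and -141. No copy lay in the Efna1 window. Of all 32851 promoter windows of this length, 36.3% held the motif in any number of copies. Of the 77 windows of 61 guidance genes 24.7% did, among them a window of Sema3a. Windows with 2 or 3 copies were not counted separately, and a link between the motif and the differences in level was not tested. TGACGTCA, the cyclic AMP response element, TGANTCA, the AP-1 element, and the E-box CACGTG were absent from these 3 windows, and were found in 1.55%, 6.75% and 6.02% of all windows. GC content was 65.2% for Plxnb3, 46.8% for Sema3d and 64.8% for Efna1, against a median of 64.4% over guidance genes and 52.4% over all windows.

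Most guidance genes were well represented in these cultures. Their median level over the tables was 4.71 log2 CPM, compared with 3.35 for all 22040 genes, and 55 of the 70 genes (78.6%) lay above 4, compared with 44.1% of all genes. A transcript length was found for all 70 guidance genes and for 19247 genes in all, over which the median level was 3.94 log2 CPM. After division by the length of the canonical transcript the medians over the same genes were 2.33 for the guidance genes and 2.29 for the 19247 genes (log2 CPM per kb). Levels of different genes are compared per kb below.

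**Figure D1:**
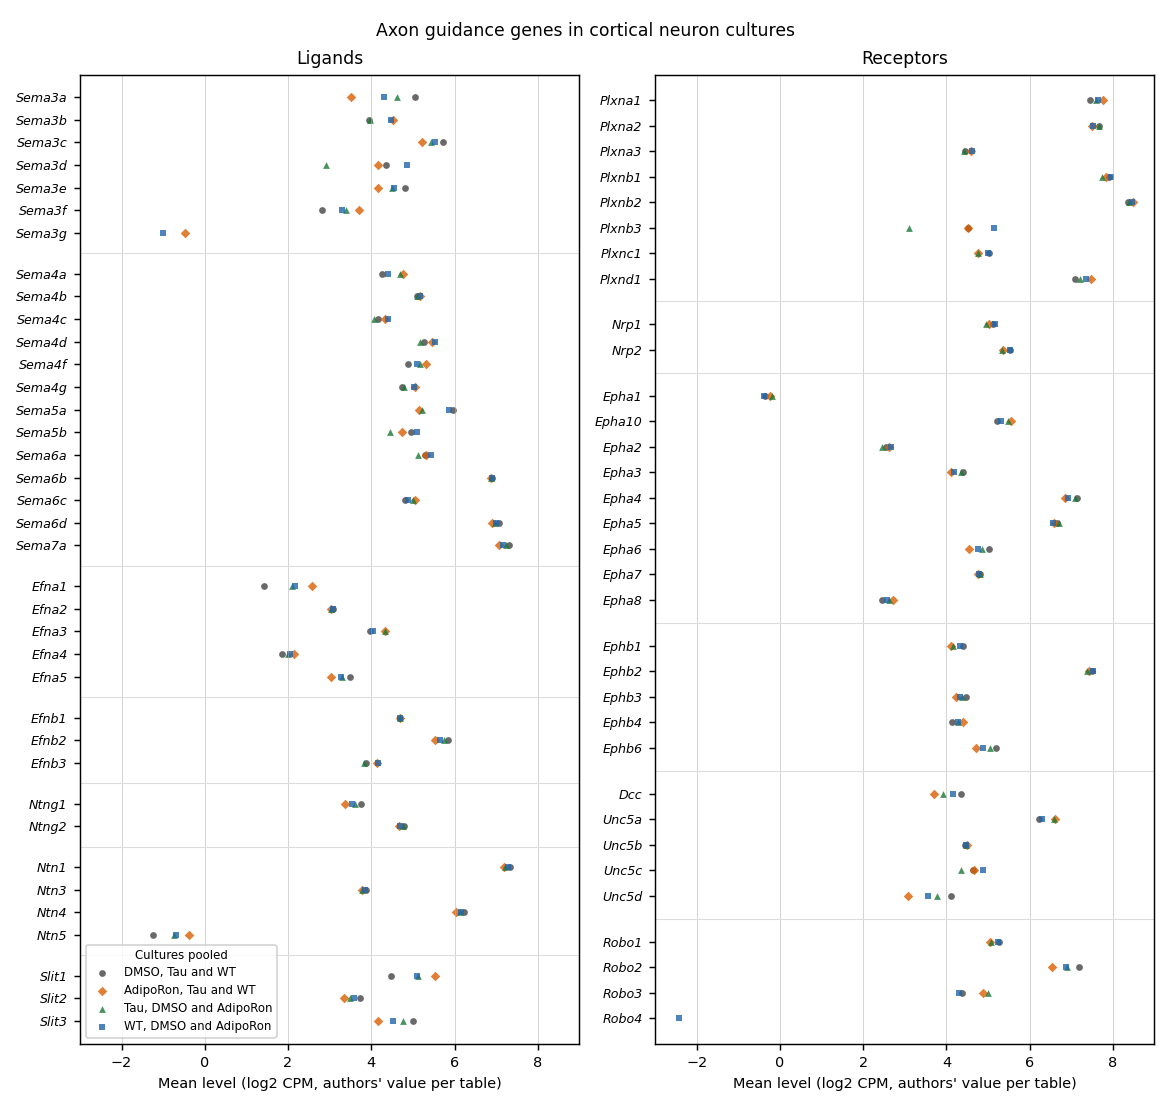
Mean level of each axon guidance gene in log2 CPM (x axis, the authors' value) for ligands on the left and receptors on the right. Each of the 4 symbols is the mean over one set of pooled cultures, and no error can be drawn; symbols lie close together for most genes and far apart for Plxnb3, Sema3d and Sema3a.

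Plexins had the highest family median, at 3.98 log2 CPM per kb. Plxnb2, a receptor of class 4 semaphorins, led the family and all guidance genes at 5.69, and Plxnb3 was lowest among plexins at 1.70. Membrane-bound semaphorins had a median of 2.98, from 2.11 for Sema5a to 5.46 for Sema7a, a semaphorin held by a lipid anchor that acts through integrins. Class 3 semaphorins were lower, with a median of 1.53, from Sema3g at -2.93 to Sema3c at 2.91. The neuropilins Nrp1 (2.71) and Nrp2 (2.69) were at nearly the same level per kb.

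Among Eph receptors, Epha4 had the highest value of the EphA class (4.35 log2 CPM per kb) and Epha1 the lowest (-2.01). Of the exon bases of Epha1, 16.1% overlap the neighbouring gene Zyx, so some of its few reads may not be its own. Ephb2, at 4.01, led the EphB class, in which Ephb1 was lowest at 2.02. The ephrin-A ligands had a median of 1.49, with Efna3 at 2.93 and Efna5 at 0.88. Ephrin-B ligands lay between 2.21 for Efnb3 and 3.36 for Efnb2.

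The secreted netrin Ntn1 stood at 4.65 log2 CPM per kb, Ntn4 at 4.23 and Ntn5, the lowest netrin, at -1.84. Netrin-G2 (Ntng2), a lipid-anchored relative that binds synaptic adhesion proteins, was at 4.06, against 1.08 for Ntng1. Much of this gap comes from the canonical lengths used, 1593 and 5593 bases, since before division the levels were 4.73 and 3.56 log2 CPM. Among Dcc and the Unc5 receptors Unc5a was the most abundant at 4.29, whereas Dcc was at 0.66 and Unc5d at 0.44. Robo2 led the Robo family at 3.70. Robo4, a receptor known from vessels, was listed only in the table of WT cultures, at -2.43 log2 CPM. Among Slits, Slit1 was highest at 2.67 and Slit2 lowest at 0.23.

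With both genotypes pooled, 4 of 68 guidance genes were at least 1.5-fold higher with AdipoRon and 7 were at least 1.5-fold lower. These shares are 5.88% and 10.3%, and over all 19693 genes in both tables the background was 2.88% higher and 4.94% lower. The median difference over the guidance genes was -0.06 (log2), compared with 0.02 over all genes. Differences ran from -1.54 for Sema3a to 1.17 for Efna1. All 4 higher genes encode ligands (Efna1, Slit1, Sema3f and Ntn5), whereas the 7 lower ones were the ligands Sema3a, Slit3, Sema5a and Sema3e and the receptors Unc5d, Robo2 and Dcc. Of the 36 ligands measured 11.1% were higher and 11.1% lower, and of the 32 receptors 0% and 9.38%. A background of 2.88% leaves few higher genes to be found among 32. Ntn5 rests on 0.420 and 0.762 CPM, and a difference between ligands and receptors was not tested. At 2-fold, 2 guidance genes were higher and 2 lower, against 0.675% and 1.75% of all genes.

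**Figure D2:**
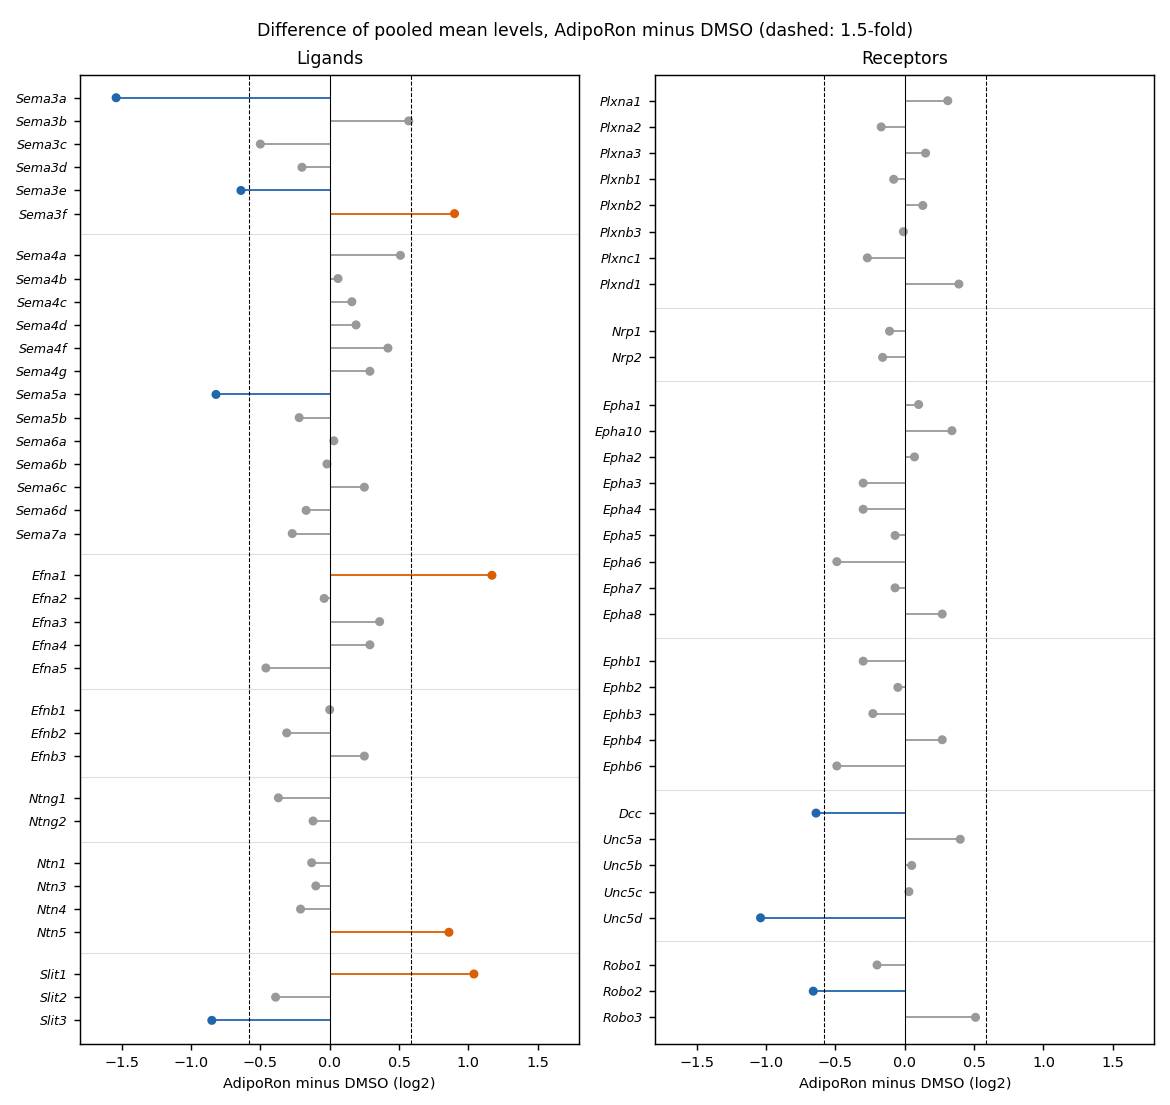
Difference between the mean of AdipoRon cultures and that of DMSO cultures (x axis, log2) for each guidance gene, with ligands on the left and receptors on the right. Dashed lines mark 1.5-fold, orange and blue the 4 genes above and the 7 genes below; there is no error bar because the tables give no value per culture.

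Sema3a, a secreted repellent that acts through Nrp1 and a class A plexin, had the largest difference of the family. Its level was 33.3 CPM over the DMSO cultures and 11.4 CPM over the AdipoRon cultures, a difference of -1.54 (log2) or 2.91-fold. Over the Tau cultures it was at 24.5 CPM and over the WT cultures at 19.7 CPM. Among the 2554 genes within 0.5 log2 CPM of its level, 0.431% differed by at least as much between AdipoRon and DMSO. This share, here and below, counts the gene itself. It ranks a gene among those of like abundance and is not a p-value.

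Other class 3 semaphorins differed in either direction. Sema3e, which binds Plxnd1 without a neuropilin, was at 28.1 CPM with DMSO and 18.0 CPM with AdipoRon (-0.64, log2). Sema3f, the classical ligand of Nrp2, was at 7.00 and 13.0 CPM in the same order (0.90). Sema3b lay just inside the mark at 0.57, Sema3c at -0.50 and Sema3d at -0.20. Sema3g was listed only in the tables of WT and of AdipoRon cultures, at 0.499 and 0.719 CPM, so no difference is given. The genes of Sema3a, Sema3c, Sema3d and Sema3e lie on chromosome 5, and they were all below 0 with AdipoRon. Sema3b and Sema3f lie on chromosome 9 and were both above 0, whereas Sema7a, also on chromosome 9, was at -0.27. Guidance genes of other families on these chromosomes went either way. On chromosome 5 Ephb4 was at 0.27, Epha5 at -0.07 and Slit2 at -0.39. On chromosome 9 Robo3 was at 0.51, Plxnb1 at -0.08 and Ephb1 at -0.30. Of all 19693 genes, 8870 were below 0. These positions were looked up after the values were seen.

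The receptors of class 3 semaphorins differed little. Nrp1 was at 35.0 CPM with DMSO and 32.5 CPM with AdipoRon (-0.11, log2), and Nrp2 at 46.2 and 41.4 CPM (-0.16). All 8 plexins stayed within 1.5-fold, from -0.27 for Plxnc1 to 0.39 for Plxnd1. Plxna1, a partner of neuropilins, was at 0.31 and Plxna2 at -0.17. Of the 13 membrane-bound semaphorins only Sema5a passed the mark, at 62.3 CPM with DMSO and 35.4 CPM with AdipoRon (-0.82). Sema4a and Sema4f came next in size, at 0.51 and 0.42, and the remaining 10 lay between -0.27 for Sema7a and 0.29 for Sema4g.

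Efna1, an ephrin that binds EphA receptors, was at 2.66 CPM over the DMSO cultures and 5.97 CPM over the AdipoRon cultures. That is 1.17 on the log2 scale or 2.25-fold, and 2.32% of 1337 genes of like level differed by as much. With 1 CPM added to both levels the difference of Efna1 was 0.93, and that of Slit1 was 1.00. The Tau and WT cultures stood at 4.28 and 4.47 CPM. The other ephrins ran from -0.46 for Efna5 to 0.36 for Efna3, and Efnb1 was level at 25.8 and 25.9 CPM. All 14 Eph receptors lay within 1.5-fold, with 9 below 0. Of all 19693 genes, 18152 lay within 1.5-fold and 8870 were below 0. Epha6 and Ephb6, the latter lacking kinase activity, were lowest at -0.49 each, and Epha10 was highest at 0.34.

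In the Slit and Robo family the ligands differed in opposite directions. Slit1 was at 22.4 CPM with DMSO and 45.9 CPM with AdipoRon, a difference of 1.04 (log2) or 2.05-fold that 1.35% of 2893 genes of like level matched or exceeded. Between genotypes it was level, at 35.0 CPM in Tau and 34.5 CPM in WT cultures. Slit3 was at 32.3 and 17.9 CPM (-0.85), and Slit2 at 13.3 and 10.2 CPM (-0.39). Robo2, their most abundant receptor here, was at 145 CPM with DMSO and 92.2 CPM with AdipoRon (-0.66), and at 119 and 117 CPM in Tau and WT cultures. Robo1 was at -0.20 and Robo3, a divergent Robo known from commissural axons, at 0.51.

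Among netrins and their receptors, Unc5d was at 17.4 CPM with DMSO and 8.42 CPM with AdipoRon (-1.04, log2, or 2.06-fold). Dcc was at 20.4 and 13.0 CPM (-0.64). Unc5a was higher but within the mark, at 74.4 and 98.1 CPM (0.40), while Unc5b and Unc5c were at 0.05 and 0.03. Ntn1 was at -0.13, Ntn3 at -0.10 and Ntn4 at -0.21, and the netrin-Gs Ntng1 and Ntng2 were at -0.37 and -0.12. Ntn5 was at 0.86, on levels of 0.420 and 0.762 CPM, and 15.3% of its exon bases overlap the gene Sec1. With 1 CPM added to both levels its difference was 0.31.

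Lists of other genes of the pathway were read against the same background of 2.88% higher and 4.94% lower. Of 50 cytoplasmic effectors of guidance receptors 0 were at least 1.5-fold higher and 5 at least 1.5-fold lower with AdipoRon (10%), with a median of 0.02. These included Mical2 (-1.45), of a family of actin-oxidizing enzymes, Ngef (-1.29), an exchange factor that acts below EphA receptors, and Kalrn (-0.79), an exchange factor of dendritic spines. Among 24 related cues and receptors 3 were higher (12.5%) and 2 lower (8.33%). These are counts of few genes, without a test. Islr2, a leucine-rich repeat protein of growing axons, was at 2.15, the adhesion protein gene Cntn2 at 0.90, and Lingo1, a partner of the Nogo receptor, at -0.83. Plxna4 was within the mark, at 0.41. Neuronal markers had a median of -0.21, with 0 of 10 past the mark, and so had 0 of 15 oligodendrocyte lineage markers, 0 of 8 astrocyte markers, 0 of 8 microglia markers and 0 of 6 fibroblast and mural markers. Microglia markers summed to 385 CPM with DMSO and 460 CPM with AdipoRon.

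With both treatments pooled, 1 of 68 guidance genes was at least 1.5-fold higher in Tau than in WT cultures and 4 were at least 1.5-fold lower. The background over 19890 genes was 2.57% higher and 2.61% lower, and the shares of the guidance genes were 1.47% and 5.88%. Their median was -0.03 (log2), compared with 0.00 over all genes. Plxnb3 and Sema3d stood far from the rest, at -2.06 and -1.95, followed by Sema5b (-0.65) and Sema5a (-0.64). Robo3 was the only gene above the mark, at 0.70. At 2-fold, 0 guidance genes were higher and 2 lower, against 0.126% and 0.508% of all genes.

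**Figure D3:**
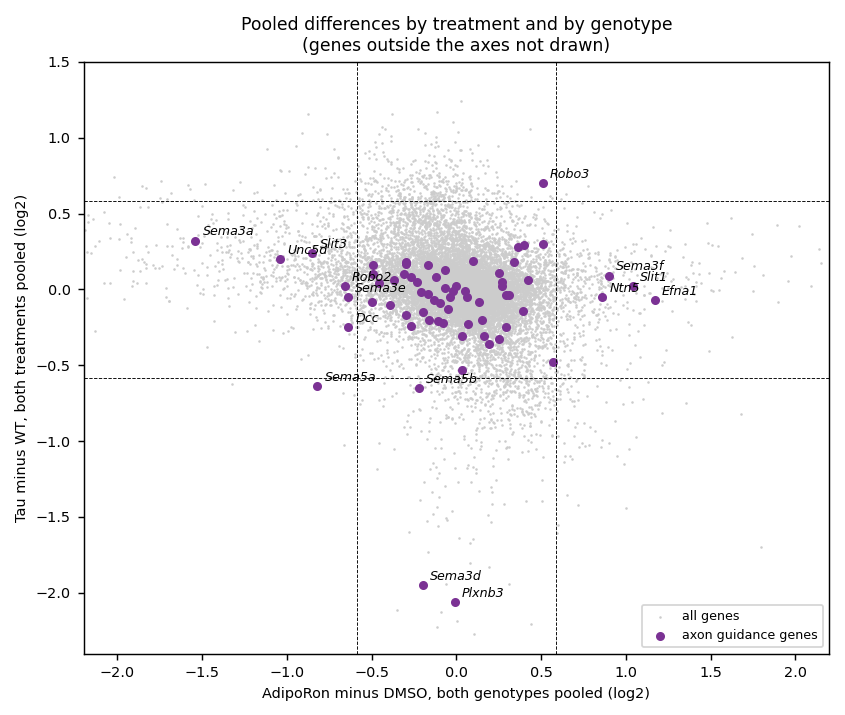
Difference by treatment (x axis, AdipoRon minus DMSO, log2) against difference by genotype (y axis, Tau minus WT, log2), with guidance genes in purple, all genes in grey and dashed lines at 1.5-fold. Plxnb3 and Sema3d lie at the bottom near 0 on the x axis, and Sema3a, Efna1 and Slit1 lie at the sides, between -0.07 and 0.32 on the y axis.

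Plxnb3, a plexin known as a receptor of Sema5a, was at 8.54 CPM over the Tau cultures and 35.5 CPM over the WT cultures, which is 4.16-fold. Over DMSO and AdipoRon cultures it was at 22.8 and 22.7 CPM. Of the 2561 genes of like level, 0.039% had a difference between genotypes of at least that size, a share made up by Plxnb3 alone. Sema3d, a secreted class 3 semaphorin, was at 7.58 CPM in Tau and 29.3 CPM in WT cultures, or 3.87-fold, which 0.128% of 2351 genes of like level reached. Both were low in Tau cultures and neither differed by 1.5-fold between treatments.

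For this pair of genes the direction of the difference between means held in each treatment. The 4 pooled means do not fix the means of the 4 groups, but since no mean can be below 0 they limit each to a range, taking each level as the log2 of a mean CPM. For Plxnb3 the mean of Tau cultures was at most 17.1 CPM with DMSO and at most 17.1 CPM with AdipoRon, while that of WT cultures was at least 28.6 CPM with DMSO and at least 27.4 CPM with AdipoRon. For Sema3d the Tau means were at most 15.2 CPM and the WT means at least 25.7 CPM with DMSO and 19.9 CPM with AdipoRon. These ranges come from arithmetic on means and hold no statement about the spread between cultures. In its own test between Tau and WT neurons the paper reports Gbp2b as the sole differentially expressed gene. Neither Plxnb3 nor Sema3d was thus called there. For the other 66 genes in all tables the ranges overlapped between genotypes in both treatments. For all 68 the ranges left the direction of the AdipoRon difference within each genotype undetermined, so whether Tau and WT neurons shared the differences of Sema3a, Efna1 or Slit1 cannot be read from the pooled means. For Sema3a the range was 24.0 to 49.1 CPM in Tau cultures with DMSO and 0 to 25.1 CPM with AdipoRon.

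**Figure D4:**
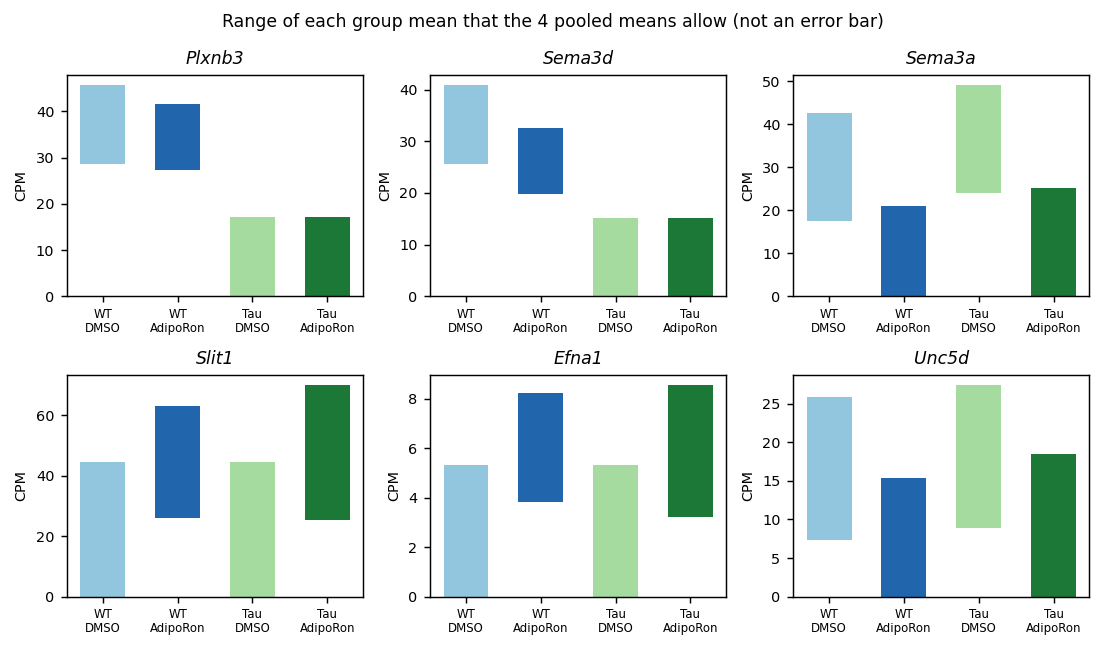
Range in CPM (y axis) that the 4 pooled means allow for the mean of each group, for 6 guidance genes; bars are limits by arithmetic and not error bars. For Plxnb3 and Sema3d the Tau ranges lie wholly below the WT ranges, and for Sema3a, Slit1, Efna1 and Unc5d the ranges of all groups of one genotype overlap.

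Markers of some glia were lower in Tau cultures as well. All 15 oligodendrocyte lineage markers were below 0 in Tau minus WT, 10 of them by at least 1.5-fold, with a median of -0.84 (log2). Neu4 was at -2.22, Enpp6 at -2.12 and Gpr17 at -2.11, whereas Olig1 was at -0.17. Summed over the 15 markers the level was 1311 CPM in Tau and 2048 CPM in WT cultures, and 1818 and 1596 CPM in DMSO and AdipoRon cultures. All 8 microglia markers were below 0 and 7 were at least 1.5-fold lower, among them Aif1 (-1.41), Tmem119 (-1.39) and Cx3cr1 (-1.19), with a median of -1.01. Their sums were 286 CPM in Tau and 546 CPM in WT cultures. Astrocyte markers had a median of 0.03 and neuronal markers one of 0.09, with 0 past the mark in either list. Of 6 fibroblast and mural markers only Dcn passed it, at 0.85, and 0 of 3 endothelial markers did. In bulk RNA fewer cells of a type and less RNA per cell cannot be told apart, and the part of these cells in the levels of Plxnb3, Sema3d, Sema5a and Sema5b was not tested.

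**Figure D5:**
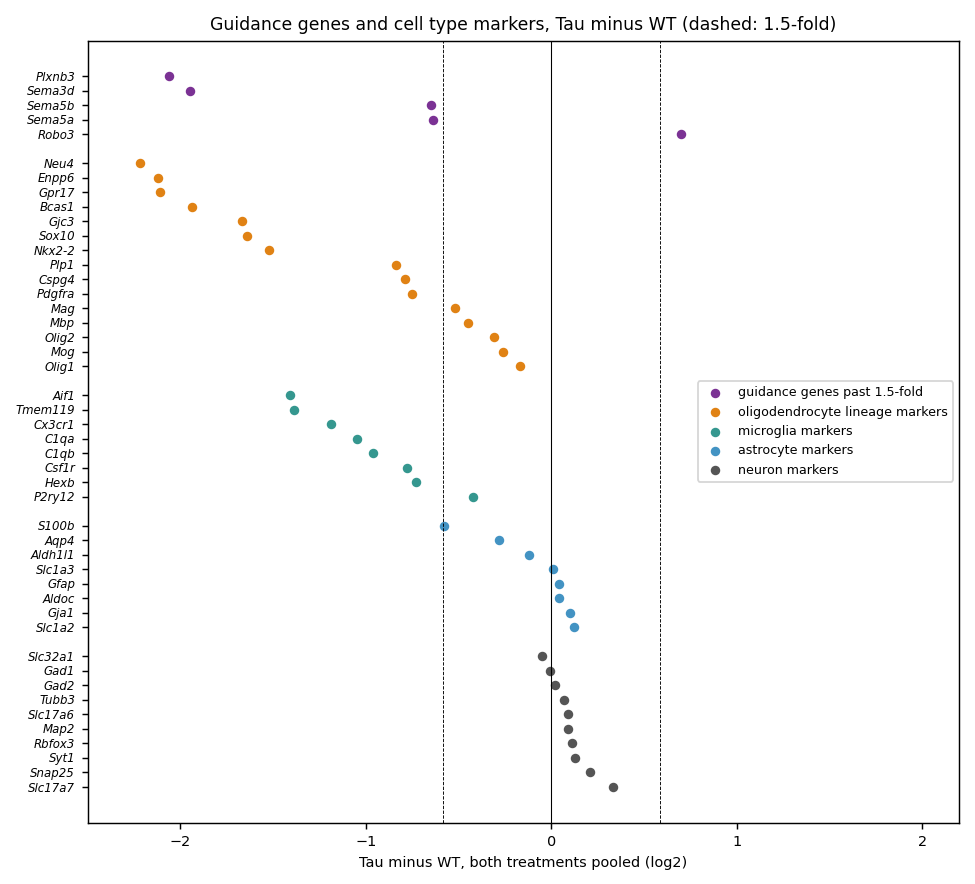
Difference between Tau and WT cultures (x axis, log2, both treatments pooled) for the 5 guidance genes past 1.5-fold and for markers of 4 cell types, with dashed lines at 1.5-fold. Plxnb3 and Sema3d lie among the oligodendrocyte lineage markers with the lowest values, and neuronal markers lie near 0.

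Sema5a and Sema5b, membrane-bound semaphorins with thrombospondin repeats, were lower in Tau cultures by smaller amounts. Sema5a was at 37.4 CPM in Tau and 58.4 CPM in WT cultures, and it was the only guidance gene past 1.5-fold in both differences. Sema5b was at 22.0 and 34.5 CPM. Unc5c (-0.53) and Sema3b (-0.48) came next below. Robo3 was at 31.9 CPM in Tau and 19.7 CPM in WT cultures (1.62-fold), a difference reached by 0.617% of 2754 genes of like level.

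The rest of the families were close between genotypes. All 14 Eph receptors lay between -0.23 and 0.19 (log2), and 11 of them were above 0, as were 10086 of all 19890 genes. Ephrins ran from -0.33 for Efnb3 to 0.28 for Efna3, netrins from -0.09 to -0.02 and Slits from -0.10 to 0.24. Nrp1 and Nrp2 were at -0.21 and -0.20. The membrane-bound semaphorins inside the mark ran from -0.36 for Sema4d to 0.30 for Sema4a. Unc5a was at 0.29, Dcc at -0.25, Robo1 at -0.15 and Robo2 at 0.02. Sema3a was the highest of the class 3 semaphorins at 0.32. Apart from Plxnb3 the plexins ran from -0.24 for Plxnc1 to 0.16 for Plxna2. Of the 50 effectors 0 passed the mark in either direction, and of the 24 related cues and receptors only Cxcl12, a chemokine, did so, at 0.68.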

How the data were processed

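RNA sequencing of 21 cultures was grouped by genotype and treatment as labelled. The labels give AdipoRon at 10 μM, while a protocol text deposited with the samples has a millimolar unit. According to the methods, the authors trimmed reads, aligned them to mm10 with STAR, quantified them with RSEM and compared groups in edgeR. The results of the paper name GRCm39 and the tables are named after Rsubread, so the build was not settled. The authors deposited, for each of 4 comparisons, a mean level per gene in log2 CPM. Filters, normalization and strand are not given in the sources used here. Further columns hold the authors' own fold changes, likelihood ratios, p-values, false discovery rates and calls, and were not used.

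Levels were subtracted between the tables of AdipoRon and DMSO cultures and between those of Tau and WT cultures. The tables of a pair share no culture, but they probably share animals between treatments, and may have been normalized separately. The AdipoRon mean holds 6 WT and 5 Tau cultures, the DMSO mean 5 of each. Python 3.11.15 and pandas 2.3.3 were used. Lengths are those of GENCODE M39 canonical transcripts, and promoters and positions are from RefSeq (GRCm38.p6, the assembly of mm10). Overlaps of exons were counted against protein-coding genes of GENCODE. Named genes are those past 1.5-fold, those highest and lowest per kb in each family, those missing from a table, and up to 3 genes past 1.5-fold of each other list. Others were chosen after their values were seen. Members and lists were chosen with earlier results of these data known. The ranks among genes within 0.5 log2 CPM, the ranges of group means and the motifs were chosen after seeing the data. Alternatives were a 2-fold mark, centring on the median of all genes, 1 CPM added, a floor of 1 log2 CPM, and genes in all 4 tables.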

Additional observations from a re-analysis of the deposited data

How the results depend on the processing

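The marks depended most on the fold used. At 2-fold, 2 guidance genes were higher and 2 lower with AdipoRon, and 0 were higher and 2 lower in Tau cultures (all genes 0.675%, 1.75%, 0.126% and 0.508%, in this order). With 1 CPM added, or with genes under a mean of 1 log2 CPM left out, 3 genes were higher with AdipoRon, since Ntn5 no longer counted. The other counts did not move under centring, the added CPM, the floor or the restriction to genes in all 4 tables. None of the 63 recomputed differences of named genes was reversed under these settings, and 4 moved by more than 0.1, all of them with 1 CPM added. The median level of the 68 guidance genes in all tables was 4.76 log2 CPM over the tables, 4.88 in the table of WT cultures and 2.44 per kb. No paired analysis was possible because the tables hold no value per culture, although the study states that treatments were compared within animals and the labels repeat replicate numbers between groups. For the same reason no replicate could be left out. The tables give neither depth nor spread between cultures, and the weight of any single culture in these means was not tested.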
